A study of Mus musculus with 2 samples.

Results

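Tgfb1, Tgfb2, Tgfb3, Inhba, Bmp2 and Bmp4 encode ligands of the TGF-β family, Grem1 and Fst encode secreted antagonists of such ligands, and Tgfbi and Skil are genes that TGF-β induces. These 10 genes, of 20660 named on the array, were chosen from earlier results on these arrays, that is, on the differences of their processed signal between the genotypes, together with their role in the pathway. Their probes were found by RefSeq accession. They had 13 probes and 40 spots per array. Of the 10 genes, 9 were well above background on both arrays, against 12875 of all genes, and Bmp4 was so on 1 array only.

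Macrophages were raised from the femoral marrow of male calpain-6-deficient mice (Capn6-Ko) and male calpain-6 wild-type mice (Capn6-Wt). Calpain-6 belongs to the calpain proteases but is itself without protease activity. Both genotypes were cultured in 10% serum with M-CSF (50 ng/mL), which drives marrow cells to become macrophages, and TNF-α (10 ng/mL), an inflammatory cytokine, and non-adherent cells were discarded. The labels disagree on the time in culture, 3 days or 4 days. The design text names 4 pooled mice and leaves unsaid how they divide between the genotypes. Each genotype was read on 1 single-colour array, so there is no replicate error between cultures, and no test between genotypes was run. The sources used here do not give strain, age or the way the gene was disrupted.

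The share of the 59305 non-control spots read as well above background was 52.8% in Capn6-Ko and 51.7% in Capn6-Wt. The 75th percentile of the signal, to which each array was scaled, was 372 in Capn6-Ko and 377 in Capn6-Wt. The single Capn6 probe had a signal of 8.65 in Capn6-Ko and 3.93 in Capn6-Wt, well above background on neither, so the targeted gene does not check the labels. Macrophage markers were bright in both pools. Csf1r, the M-CSF receptor gene, had a signal of 48105 in Capn6-Ko and 42230 in Capn6-Wt. Adgre1, a surface protein gene of mature macrophages, had 20108 in Capn6-Ko and 17916 in Capn6-Wt.

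TGF-β family ligands are secreted as dimers and bind pairs of type I and type II receptor kinases, which phosphorylate Smad transcription factors. TGF-βs and activins act mainly through Smad2 and Smad3, and bone morphogenetic proteins (BMPs) through Smad1, Smad5 and Smad9. TGF-βs are stored outside the cell in a latent form, and follistatin and gremlin hold activins and BMPs away from their receptors. In macrophages TGF-β1 is known for restraining inflammatory activation, and activin A is made in response to inflammatory stimuli.

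Both antagonist genes and 4 of the 6 ligand genes were lower in Capn6-Ko, and the TGF-β-induced gene Tgfbi was higher. The antagonist genes Fst and Grem1 were lower by 1.54-fold and 1.46-fold. Of the ligand genes, Tgfb2, Bmp2, Tgfb3 and Inhba were lower by 1.30-fold to 1.39-fold, whereas Tgfb1 was 1.05-fold higher. Tgfbi was 1.27-fold higher and Skil 1.04-fold higher. These folds compare 1 RNA pool with another, in which fewer cells of a type and less RNA per cell cannot be told apart. Genes are counted by a size of 0.32 on the log2 scale, a ratio of 5 to 4.

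**Figure D1:**
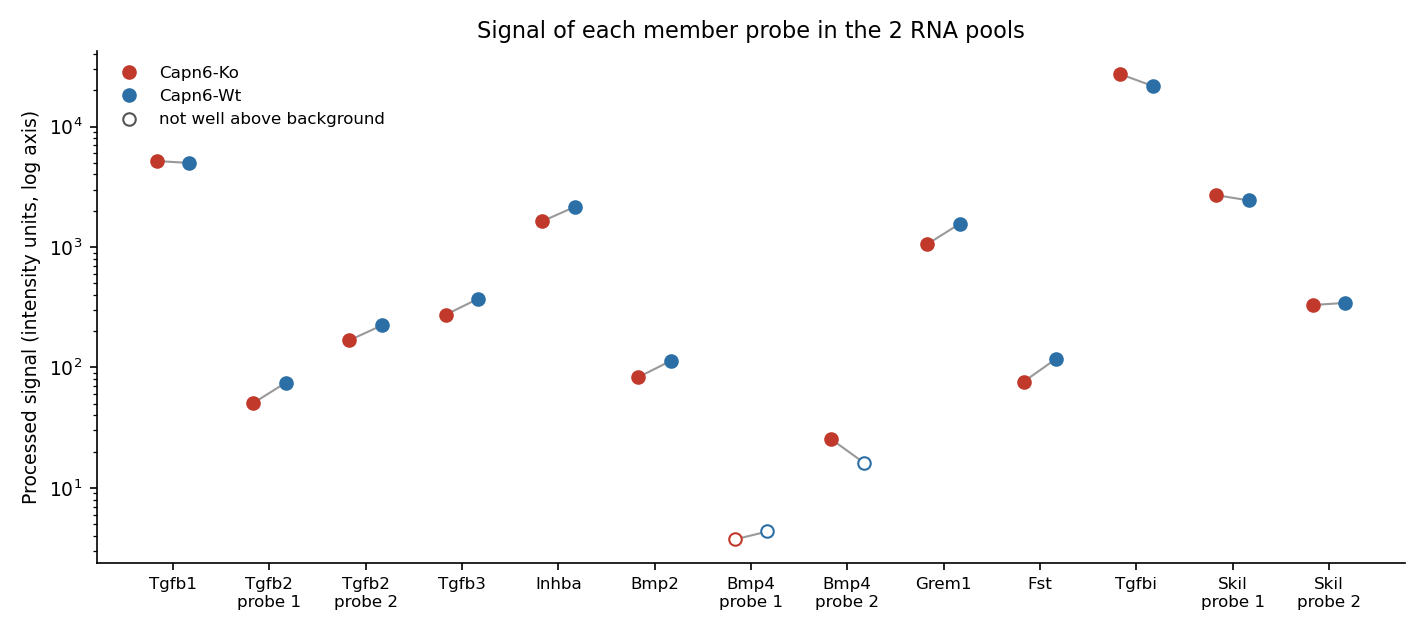
Processed signal (intensity units, log axis) of the 13 probes of the 10 genes, Capn6-Ko on the left and Capn6-Wt on the right of each pair, as means over spots. Open circles were not well above background. The lines slope up to Capn6-Wt for Tgfb2, Tgfb3, Inhba, Bmp2, Grem1 and Fst, and down for Tgfb1, Tgfbi and the brighter Skil probe. Levels of different probes are not comparable.

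Upstream sequences are shown for 3 of the genes that were lower together and for the gene that was higher, each before 1 annotated transcript start. RefSeq promoters of the assembly GRCm38.p6 matched 6 of the 10 genes. For each gene shown, the 250 bases before the annotated transcript start are printed on the strand of the gene, Tgfb2 from chr1:186705990-186706239 and Grem1 from chr2:113758649-113758898, both on the minus strand, and Inhba from chr13:16011601-16011850 and Tgfbi from chr13:56609336-56609585, both on the plus strand. The windows of Grem1 and Tgfbi end at the outer start of the gene, whereas those of Tgfb2 and Inhba lie inside the annotated gene, before a transcript start that is not the outermost. Capitals mark matches on either strand to CAGAC, which is the half-site that Smads bind. They also mark matches to the core promoter element TATAAA.
Tgfb2: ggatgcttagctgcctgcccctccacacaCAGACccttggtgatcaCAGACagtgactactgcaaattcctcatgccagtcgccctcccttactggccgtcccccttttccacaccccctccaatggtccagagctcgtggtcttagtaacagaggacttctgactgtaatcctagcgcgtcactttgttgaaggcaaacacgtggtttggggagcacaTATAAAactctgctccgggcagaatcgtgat
Grem1: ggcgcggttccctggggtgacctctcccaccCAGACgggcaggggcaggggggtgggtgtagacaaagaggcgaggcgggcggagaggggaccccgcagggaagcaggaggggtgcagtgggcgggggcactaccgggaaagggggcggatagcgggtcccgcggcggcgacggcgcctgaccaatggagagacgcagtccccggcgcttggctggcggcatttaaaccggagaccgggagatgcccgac
Inhba: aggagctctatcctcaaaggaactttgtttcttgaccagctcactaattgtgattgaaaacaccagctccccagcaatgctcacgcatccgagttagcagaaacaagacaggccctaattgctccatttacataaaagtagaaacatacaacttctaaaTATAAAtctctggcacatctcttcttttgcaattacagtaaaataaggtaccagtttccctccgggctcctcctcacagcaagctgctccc
Tgfbi: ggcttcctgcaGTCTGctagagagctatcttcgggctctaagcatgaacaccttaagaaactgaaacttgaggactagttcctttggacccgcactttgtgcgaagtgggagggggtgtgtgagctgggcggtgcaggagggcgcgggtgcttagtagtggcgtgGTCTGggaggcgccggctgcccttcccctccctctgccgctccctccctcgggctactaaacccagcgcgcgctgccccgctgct

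Tgfb2 had CAGAC at positions -221 and -204 and TATAAA at -31, counted from the transcript start to the first base of the match. Grem1 had CAGAC at -219, and Tgfbi had its reverse complement at -239 and -85. Inhba had TATAAA at -91 and no Smad half-site. The promoters of Tgfb1 and Bmp4, not printed, held neither motif, so that 3 of the 6 held the Smad half-site and 2 the core promoter element. The AP-1 site TGANTCA and the TEAD site GGAATG were searched on both strands too and were in none of the 6 promoters. No match overlapped another. Among 32851 promoters of the same length, 42.2% held the Smad half-site, 12.4% the core promoter element, 6.75% the AP-1 site and 12.6% the TEAD site. The windows of Grem1, Tgfbi, Tgfb2 and Inhba had a GC content of 72%, 62.4%, 53.6% and 43.2%, where the median over all promoters was 52.4%. A match of letters describes the window and does not show a bound site.

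The difference given for each gene is the log2 signal in Capn6-Ko minus that in Capn6-Wt, after scaling to the 75th percentile. The value after ± is the SD expected of that difference from the spread between spots of 1 probe on 1 array. It covers spotting and scanning, not mice, culture, labelling or disagreement between probes of a gene.

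Among the ligands, Tgfb1 and Tgfb3 were read from 10 spots per array. Tgfb1, the main TGF-β of immune cells, had a signal of 5177 ± 125 in Capn6-Ko and 4984 ± 122 in Capn6-Wt (SD over 10 spots). Its spots ran from 5031 to 5395 in Capn6-Ko and from 4779 to 5129 in Capn6-Wt. The ranges overlapped, but after scaling each of the 10 positions was higher in Capn6-Ko, by 0.042 to 0.10, and the difference was 0.073 ± 0.024. Scaled to the median of each array, it was 0.138.

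Tgfb3, which encodes a TGF-β known for its part in palate closure, had a signal of 274 ± 12.9 in Capn6-Ko and 373 ± 14.8 in Capn6-Wt (SD over 10 spots). Its spots ran from 254 to 299 in Capn6-Ko and from 344 to 390 in Capn6-Wt, with no overlap. Every position was lower in Capn6-Ko, by 0.33 to 0.57, and the difference was -0.43 ± 0.035. Of the ligands, Tgfb3 had the largest difference relative to its spot SD, 12.3 times. This SD shrinks with the number of spots. Tgfb2 and Bmp2, with 1 spot per probe, had slightly larger differences, -0.47 and -0.44. The spots are repeats of 1 RNA pool on 1 array and not samples. For Tgfb1 and Tgfb3 alike, agreement between positions reflects how closely spots repeat. The share of all repeated probes with such agreement is not given here.

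Tgfb2, which encodes a TGF-β prominent in embryonic development, had 2 probes of 1 spot each. The dimmer gave 50.4 in Capn6-Ko and 74.8 in Capn6-Wt, a difference of -0.55 ± 0.20. The brighter gave 168 in Capn6-Ko and 224 in Capn6-Wt, a difference of -0.39 ± 0.13. Both probes were lower in Capn6-Ko, and their mean difference was -0.47 ± 0.12.

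Inhba encodes the βA subunit that forms activin A, and its single spot gave 1632 in Capn6-Ko and 2152 in Capn6-Wt. The difference of -0.38 ± 0.083 was 4.6 times its spot SD. With each array scaled to its median instead, it was -0.316, just short of 0.32. Bmp2, a BMP ligand that induces bone formation, gave 83.1 in Capn6-Ko and 114 in Capn6-Wt from 1 spot, a difference of -0.44 ± 0.16. Under another background correction (normexp), which draws dim signals together, Bmp2 and Tgfb2 were at -0.222 and -0.225. Inhba, Bmp2 and Tgfb2 were lower in Capn6-Ko under each of these settings.

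Bmp4, a close relative of Bmp2, was near the detection limit. One of its probes gave 3.74 in Capn6-Ko and 4.35 in Capn6-Wt, well above background on neither. The other gave 25.5 in Capn6-Ko and, not well above background, 16.2 in Capn6-Wt. Against 16.6, the dimmest signal of the Capn6-Wt array that passed as well above background, this probe was 1.56-fold higher in Capn6-Ko. This fold rests on 1 spot per array and makes no allowance for a spot SD of 0.33 on the log2 scale. The probe passed only on the array where it was brighter, so the fold is not a lower bound. No other size is given, since the signal in Capn6-Wt was not well above background.

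**Figure D2:**
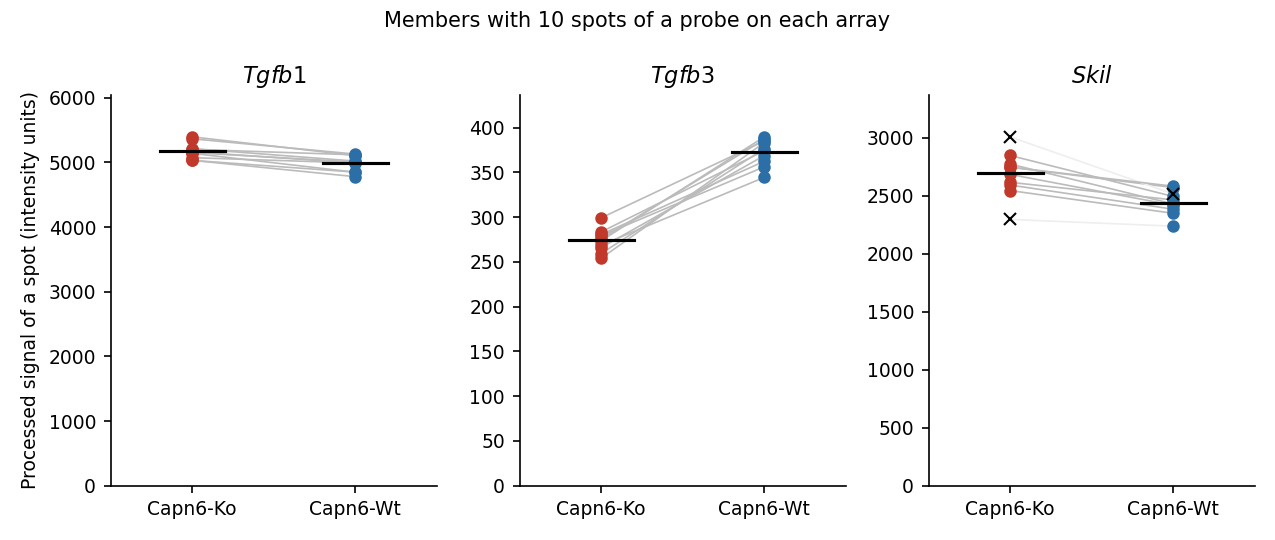
Processed signal (intensity units, axis from 0) of single spots of the Tgfb1, Tgfb3 and Skil probes that are spotted 10 times on each array, Capn6-Ko left and Capn6-Wt right. Lines join the same array position, bars are means, and black crosses are outlier spots, which were left out. The Tgfb3 spots do not overlap between the arrays, 254 to 299 in Capn6-Ko against 344 to 390 in Capn6-Wt.

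Both antagonist genes were lower in Capn6-Ko. Grem1, whose product gremlin binds BMP2 and BMP4, gave 1056 in Capn6-Ko and 1565 in Capn6-Wt, a difference of -0.55 ± 0.080, or 6.89 times its spot SD. Among the 6437 genes above the median level, Grem1 had rank 10 from the lowest difference and Inhba rank 45. Both were chosen with these differences known, so the ranks describe the choice. Fst, whose product follistatin binds activins, gave 76.0 in Capn6-Ko and 118 in Capn6-Wt, a difference of -0.62 ± 0.16. Each value comes from 1 spot per array. Fst was the 1 gene of the 10 that was lower by at least 1.5-fold, a size that 1.26% of all measured genes reached in that direction. Activin βA and its antagonist were thus both lower, as were the BMP ligand gene Bmp2 and the BMP antagonist gene Grem1.

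Neither TGF-β-induced gene was lower on average over its probes. Tgfbi encodes a secreted matrix protein that binds integrins, and its signal was 27289 in Capn6-Ko and 21715 in Capn6-Wt. The difference of 0.35 ± 0.083, from 1 spot per array, had rank 30 from the highest among the 6437 genes above the median level. It was 0.316, just short of 0.32, after normexp. Skil encodes SnoN, a co-repressor that binds Smads and is induced by TGF-β as negative feedback. Its probe with 10 planned spots gave 2694 ± 103 over 8 spots in Capn6-Ko and 2436 ± 108 over 9 spots in Capn6-Wt (SD). At the 8 positions kept on both arrays this probe was higher in Capn6-Ko, by 0.10 to 0.21, with a difference of 0.16 ± 0.029. A second Skil probe of 1 spot gave 330 in Capn6-Ko and 344 in Capn6-Wt, a difference of -0.042 ± 0.11. The probes differ in sign, and their mean was 0.061 ± 0.056, or 0.125 with each array scaled to its median.

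**Figure D3:**
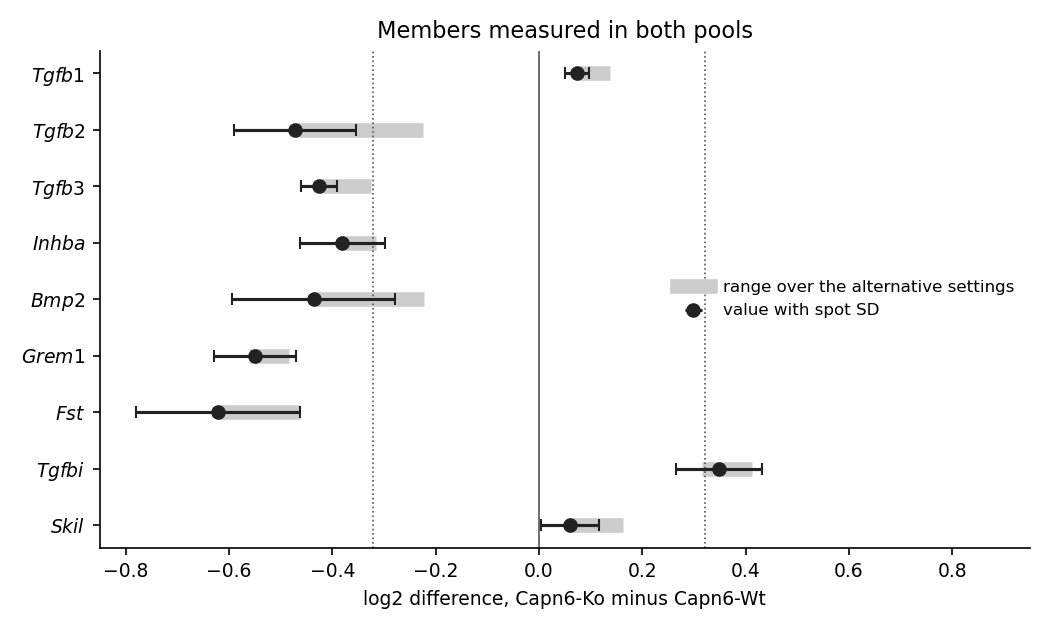
The log2 difference, Capn6-Ko minus Capn6-Wt, of the 9 genes measured in both pools, with the SD expected from spots (bars) and the range over the alternative settings (grey). Dotted lines mark 0.32 and -0.32. Both antagonist genes lie at -0.55 and below, 4 ligand genes lie between -0.47 and -0.38, and Tgfbi lies at 0.35.

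By the size of 0.32, 6 of the 9 measured genes were lower in Capn6-Ko and 1 was higher, where 5.53% of the 12875 measured genes were lower and 2.64% higher. Of all genes past this size 32.3% were higher, and 51.1% with each array scaled to its median. Dim genes passed it more often. Among the 6437 genes above the median level 0.886% were lower and 0.684% higher, and among the 6438 others 10.2% were lower. Grem1, Inhba and Tgfbi are in the brighter set, and Fst, Bmp2, Tgfb2 and Tgfb3 in the dimmer one. The median difference was -0.43 over the 9 genes and -0.0056 over all measured genes. Over the 5 genes with a probe above the median level (Tgfb1, Inhba, Grem1, Tgfbi and Skil) it was 0.0605. Since the genes were chosen with these differences known, the shares are a description of the choice. The same holds for the ranks of Grem1, Inhba and Tgfbi.

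**Figure D4:**
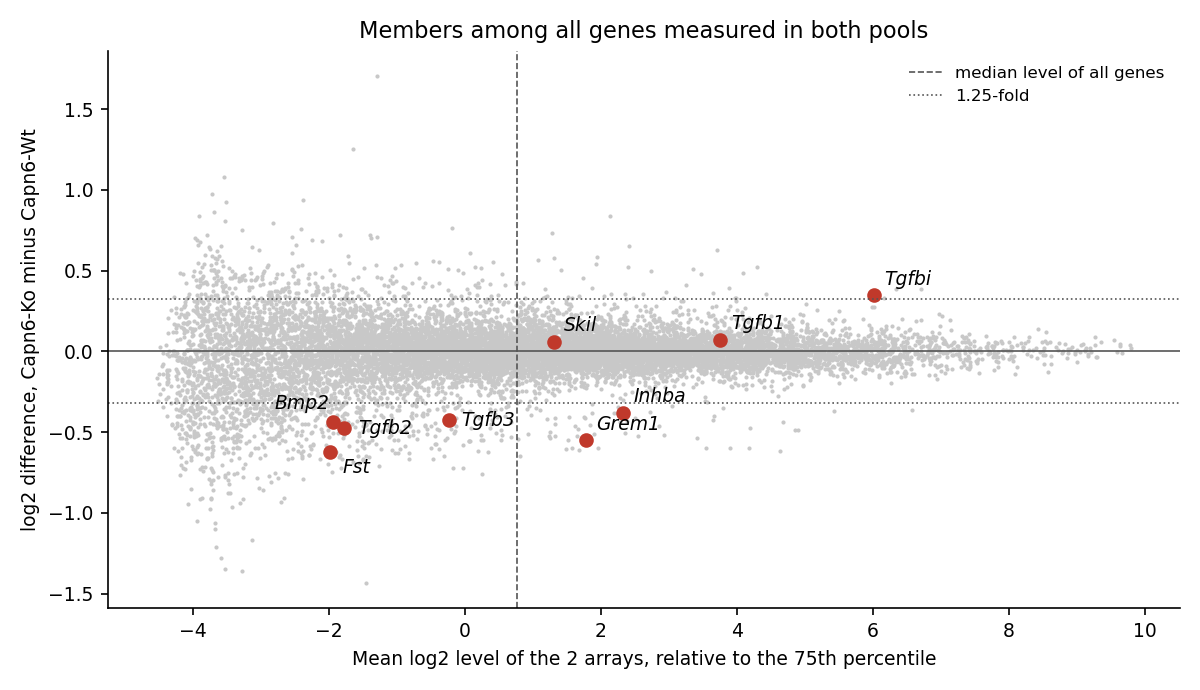
Each grey point is 1 of 12875 genes measured in both pools, by mean log2 level of the arrays relative to the 75th percentile (x axis) and log2 difference, Capn6-Ko minus Capn6-Wt (y axis). The spread narrows to the right. Grem1 (-0.55), Inhba (-0.38) and Tgfbi (0.35) lie outside the dotted lines at 0.32 and -0.32 in the range where few genes do. They were chosen with these differences known.

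Other genes of the pathway were taken from lists of textbook membership, 116 genes besides the 10, of which 84 were measured on both arrays. By this size, 28 were lower in Capn6-Ko and 1 was higher, and their median difference was -0.091. Of these, 12 were among 17 TGF-β and activin targets and 7 among 13 genes for its latent form, with Ltbp2 in both, whereas receptor and Smad genes had medians of 0.072 and 0.063. The lists share members, and 8 of the 116 genes are also stromal markers. By direction alone, 6718 of the 12875 measured genes were lower and 6157 higher.

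Of 28 other ligand genes 14 were measured, 4 lower and 1 higher by 0.32, with a median of -0.14. These counts and the median include Bmp1 (-0.29 ± 0.056 over 3 probes), whose product is a protease and not a ligand. The Bmp1 probes were at -0.50, -0.33 and -0.023, a spread that the spot SD does not cover. Gdf15, a distant family member that cells make under stress, gave 14130 in Capn6-Ko and 18465 in Capn6-Wt, a difference of -0.37 ± 0.083. The others past this size were dim single spots, Gdf5 (-0.47 ± 0.31), Bmp5 (-0.40 ± 0.33), Nodal (-0.33 ± 0.27) and, higher, Lefty1 (0.50 ± 0.31). Gdf3 was at 0.21 ± 0.060 over 2 probes. Bmp10 was well above background in Capn6-Ko only, with 17.1 in Capn6-Ko and 16.5 in Capn6-Wt. The dimmest signals that passed were 14.0 on the Capn6-Ko array and 16.6 on the Capn6-Wt array, so no fold is given.

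Of 15 other antagonist genes 8 were measured, 3 of them lower by 0.32, with a median of -0.24. Nbl1, a BMP-binding protein gene, gave 417 in Capn6-Ko and 577 in Capn6-Wt, a difference of -0.45 ± 0.099. Fstl3, a follistatin-like gene whose product binds activins, was at -0.36 ± 0.11. Bmper was well above background in Capn6-Wt only, with a signal of 17.3 in Capn6-Ko and 31.8 in Capn6-Wt. Chrdl1, whose product binds BMPs, had a probe well above background in Capn6-Ko only, with 17.1 in Capn6-Ko and 8.94 in Capn6-Wt. Its other probes were well above background on neither array. Against the lower genes, Dand5 was at 0.19 ± 0.13.

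Genes for latent TGF-β binding and activation were split. Of 13 measured, 7 were lower by 0.32 and none was higher, with a median of -0.38. The latent TGF-β binding protein genes Ltbp1 and Ltbp2 were at -0.57 ± 0.14 and -0.40 ± 0.074, with signals of 4123 in Capn6-Ko and 5518 in Capn6-Wt for Ltbp2. Lrrc32, which encodes the membrane anchor GARP, was at -0.41 ± 0.085, and the activator gene Thbs1 at -0.38 ± 0.082. The microfibril gene Fbn1 was at -0.48 ± 0.11, and the proteoglycan genes Bgn and Dcn at -0.52 ± 0.096 and -0.49 ± 0.097. Ltbp3 (0.091 ± 0.066), Ltbp4 (-0.012 ± 0.11), the protease gene Furin (0.066 ± 0.077) and the integrin gene Itgav (0.16 ± 0.063) were not lower by that size. Nrros, which encodes the anchor of latent TGF-β1 on macrophages and microglia, gave 30767 in Capn6-Ko and 27964 in Capn6-Wt, a difference of 0.16 ± 0.083. Emilin1 was highest, at 0.29 ± 0.15. Without Bgn and Dcn, which are also stromal markers, the median was -0.0116. Among the 11 genes left, Ltbp1, Ltbp2, Lrrc32, Thbs1 and Fbn1 were still lower by 0.32.

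Of 12 measured receptor genes 9 were higher and 3 lower, 1 of them by 0.32, with a median of 0.072, which was -0.0823 over all 17 with no filter on dim probes. Among all 12875 measured genes 6157 were higher. The TGF-β receptor genes Tgfbr1 and Tgfbr2 were at 0.16 ± 0.068 and -0.082 ± 0.067. For Tgfbr1 this was the mean of a bright probe at 0.070 and a dimmer one at 0.26. For Tgfbr2 the bright probe was at -0.015 and the dimmer one at -0.15. The BMP receptor gene Bmpr1a was the 1 past 0.32, at -0.55 ± 0.27 from a dim spot, and the co-receptor gene Rgma was highest, at 0.17 ± 0.11. Of 8 Smad genes 7 were measured, from -0.077 ± 0.058 for Smad4 to 0.21 ± 0.12 for Smad5. The inhibitory Smad genes, which the pathway induces as feedback, were at 0.042 ± 0.10 for Smad6 and 0.089 ± 0.11 for Smad7. Of 9 other measured negative regulators 1 was past 0.32. This was Pmepa1, a TGF-β-induced inhibitor of Smad signalling, at -0.33 ± 0.076, as the mean of a probe at -0.47 and one at -0.19. Nedd4l was highest in that list, at 0.18 ± 0.091, as the mean of a bright probe at -0.024 and a dim one at 0.39. Tgif2, a co-repressor gene, had dim probes that gave 22.4 and 18.2 in Capn6-Ko, and 18.9 and 12.1 in Capn6-Wt. These were well above background in Capn6-Ko only. A further Tgif2 probe gave 8.06 in Capn6-Ko and 7.20 in Capn6-Wt, well above background on neither.

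TGF-β and activin target genes were lower in 14 of 17, 12 of them by 0.32, with a median of -0.40. Among all 12875 measured genes 6718 were lower, and 5.53% by 0.32. Ccn2, which encodes connective tissue growth factor, gave 5789 in Capn6-Ko and 8149 in Capn6-Wt, a difference of -0.48 ± 0.078. Tagln (-0.61 ± 0.081), Acta2 (-0.60 ± 0.025) and Col1a2 (-0.60 ± 0.078) were lowest, followed by Cdkn2b (-0.50 ± 0.21), Postn (-0.50 ± 0.11), Col1a1 (-0.43 ± 0.083), Timp3 (-0.40 ± 0.080) and Fn1 (-0.35 ± 0.075). Ltbp2 and Pmepa1, described with the other lists, were past that size too. The early target Klf10 was highest, at 0.10 ± 0.081. Of these 17 genes 6 are also stromal markers, and of the 11 others 6 were lower by 0.32, with a median of -0.33. Tgfbi, at 0.35, thus lay above all 17.

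BMP target genes were split, with 5 of 11 measured genes higher, 6 lower and a median of -0.025. Under the alternative settings that median ran from -0.0801 to 0.0453. Id1 and Id3, which encode inhibitors of basic helix-loop-helix factors, were at 0.12 ± 0.082 and 0.27 ± 0.077, and their relative Id2 at -0.18 ± 0.083. For Id3 the signals were 7105 in Capn6-Ko and 5963 in Capn6-Wt. Id4 was well above background in Capn6-Wt only, with 12.8 in Capn6-Ko and 26.6 in Capn6-Wt, from 1 spot per array. Atoh8 (-0.44 ± 0.30) and Runx2 (-0.36 ± 0.33) passed 0.32 as dim spots.

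**Figure D5:**
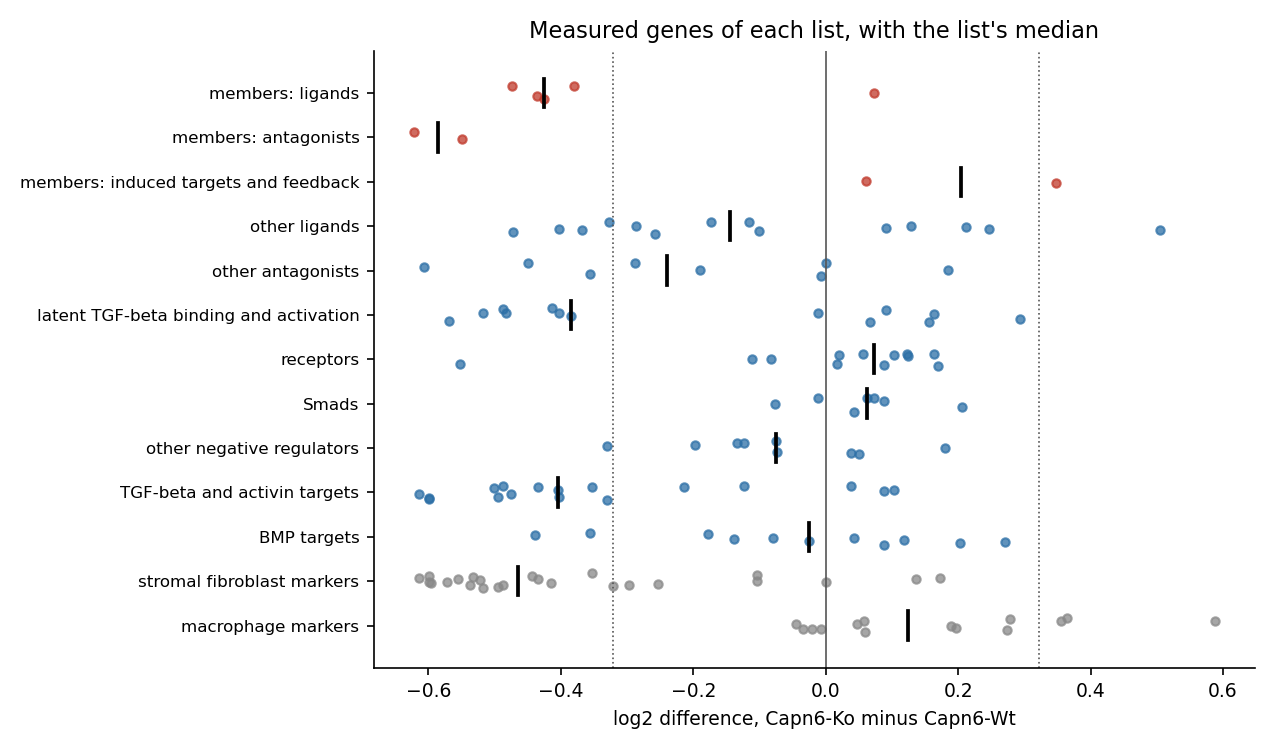
The log2 difference, Capn6-Ko minus Capn6-Wt, of every gene measured on both arrays in each list (points, vertical jitter only) with the list's median (bar). Dotted lines mark 0.32 and -0.32. The TGF-β and activin targets (median -0.40) lie in the range of the stromal markers (-0.47), and the receptors (0.072) and Smads (0.063) lie near 0. The targets and the stromal markers share 6 genes.

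Stromal markers moved in the same direction as the TGF-β targets, in part because the lists share 6 genes, all 6 lower by 0.32. The 11 targets that are not stromal markers had a median of -0.33. Of 25 stromal fibroblast markers 24 were measured, and Capn6-Ko had lower values for 21, with 16 past 0.32 and a median of -0.47. Among all 12875 measured genes 6718 were lower and 6157 higher. Their summed signal was 120216 in Capn6-Ko and 140543 in Capn6-Wt, and Lum was well above background on neither array. Vim alone gave 78274 of the sum in Capn6-Ko and 79238 in Capn6-Wt, so the sums mostly reflect this 1 marker. Platelet-derived growth factor receptor genes, which mark stromal cells, were at -0.53 ± 0.13 (Pdgfrb) and -0.30 ± 0.067 (Pdgfra). The 3 stromal markers that were not lower were Thy1 (0.17 ± 0.33), Fap (0.14 ± 0.16) and Vim (0.0005 ± 0.083). Of 16 macrophage markers 14 were measured, 10 higher and 4 lower, with 3 higher and 0 lower by 0.32, a median of 0.12 and summed signals of 444723 in Capn6-Ko and 431834 in Capn6-Wt. The 3 macrophage markers past 0.32 were Cx3cr1 (0.59 ± 0.063), Cd14 (0.36 ± 0.074) and Aif1 (0.36 ± 0.079), each as high as Tgfbi or higher. Cd163 was well above background on neither array, and no probe was matched to Cd68. None of the 10 genes is in a marker list, and the part of stromal or macrophage RNA in their differences was not tested.

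Marker lists of 5 further cell types were also read. Megakaryocyte and platelet markers, of cells rich in TGF-β1, had a median of 0.13 over 13 genes, with 10 higher and 3 lower. Their summed signals were 26772 in Capn6-Ko and 25963 in Capn6-Wt. The 2 past 0.32 were Gp6 (0.47 ± 0.16) and Gp9 (0.33 ± 0.11), both higher. Among all 12875 measured genes 6157 were higher. Endothelial markers were measured in 3 of 8 genes, with a median of -0.069, and Cdh5, Tek, Tie1, Emcn and Cldn5 were well above background on neither array. The median was -0.12 over 4 measured osteoblast markers, -0.024 over 5 T and NK cell markers and -0.15 over 2 B cell markers. Of the 4 osteoblast markers 2 were lower by 0.32, the dim spots Runx2 (-0.36 ± 0.33) and Alpl (-0.37 ± 0.16). The other 2 were higher, Ibsp (0.12 ± 0.33) as a dim spot and the bright Spp1 at 0.27 ± 0.083. Spp1 gave 26587 in Capn6-Ko and 22262 in Capn6-Wt. Of the 2 B cell markers 1 was lower by 0.32. The part of these cells in the differences was not tested.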

How the data were processed

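RNA of 1 pool per genotype was labelled with Cy3 and read on 1 Agilent array each. Per the file headers, the authors used Agilent Feature Extraction 10.10.1.1, and the deposited intensity is its processed signal, background-subtracted within each array on a linear scale. The array design is annotated on mm9. The slide and the scan were shared by the arrays. The authors' deposited value table, also an intensity, equals the processed signal times 2.42 for Capn6-Ko and 2.39 for Capn6-Wt, uncentred and with no direction, with column medians of 50.7 and 53.0. The basis of these constants is not stated in the sources used here.

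Control spots and outlier spots (136 on the Capn6-Ko array, 161 on the Capn6-Wt array) were left out, and saturation flags were set on no spot. The log2 of the signal over the 75th percentile was averaged over spots of a probe, then over the probes of a gene of which most spots passed as well above background on each array. Among 55678 probes, 27232 matched a symbol through their RefSeq accession, in a gene table of GRCm38.p6. The spot SD comes from 263 probes with at least 5 spots on each array, in 8 bins of level. With 1 array per group no test was possible, and genes were counted by a log2 difference of 0.32 (a ratio of 5 to 4) and a fold of 1.5.

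The members, the gene lists and the sizes were chosen with earlier results of these data known. Named pathway genes are those past 0.32, otherwise the highest and lowest of each list, and Smad6, Smad7, Pmepa1, Ccn2, Id1 and Id3. Some genes that this rule names are not reported here. Further genes were named after their values were seen, namely Gdf3, Bmp1, Bmp10, Bmper, Chrdl1, Tgif2, Ltbp3, Ltbp4, Furin, Itgav, Nrros, Tgfbr1, Tgfbr2, Id2, Id4, Csf1r, Adgre1, Cx3cr1, Cd14, Aif1, Pdgfra, Pdgfrb, Thy1, Fap, Vim and the undetected markers. So were Gp6, Gp9, Alpl, Ibsp and Spp1. Alternatives were median scaling, quantile normalization, normexp with an offset of 50, the value table, other filters on dim probes, the brightest probe, and outlier spots kept. The files hold no mean spot signal, so normexp used the median spot signal. Python 3.11.15, numpy 2.4.6, pandas 2.3.3, R 4.3.3 and limma 3.58.1 were used, and the averaging was tested on simulated data.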

Additional observations from a re-analysis of the deposited data

How the results depend on the processing

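Each value describes 1 RNA pool per genotype, and depth of signal limits the dim genes, where 1 spot has an SD of up to 0.23. Over 9 alternative settings, all 77 values obtained for the 9 measured genes kept their sign. Many of these values repeat the main value by construction, so the count is no measure of robustness. A gene with 1 probe and no outlier spot could move, beyond rounding, only under median scaling, quantile normalization or normexp. Grem1, at -0.562 to -0.485, Fst, at -0.622 to -0.462, and Tgfb3, at -0.426 to -0.325, stayed past 0.32 under each setting that measured them. With normexp, whose offset draws dim values together, the members' median was -0.225, with 4 lower and 0 higher by 0.32, no other pathway gene was higher (0), and 81 genes in all were higher and 196 lower. With only probes above the median level, 5 members remained measurable, their median turned to 0.0605 and 2 were lower, with 17 other pathway genes lower and 0 higher, and 73 genes in all higher and 109 lower. With probes above background on at least 1 array, 2 members and 3 other pathway genes were higher, and 615 genes in all. That filter admits Bmp4 through the array on which it was brighter, so its count as higher is no finding. With no filter 8 other pathway genes were higher, 1667 genes in all were higher and 2590 lower, and the median was -0.198 for latent TGF-β genes and -0.0823 for receptors. Scaling to the median shifted all genes by a constant, giving 3 other pathway genes higher and 558 higher against 535 lower in all, where the main setting gave 340 and 712. Leaving out genes that are also stromal markers, an alternative added after the data were seen, gave -0.0116 for latent TGF-β genes, -0.33 for TGF-β targets and 20 lower pathway genes. Ltbp1, Ltbp2, Lrrc32, Thbs1 and Fbn1 were still among the lower ones. The median of the BMP targets was below 0 under 6 of the 9 settings. Apart from what the construction of a setting shows, the cause of these moves was not tested. No paired analysis was possible because each group has 1 array.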
